A study of Drosophila melanogaster and Drosophila simulans and Drosophila yakuba with 24 samples.

Results

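The genes described here are 9 genes used as markers of Drosophila blood cells (hemocytes), namely Hml, NimC1, eater, Sr-CI, He, crq, Pxn, PPO1 and PPO2. They were taken by name from the 13898 genes of a count table covering 4 tissues, and all 9 were found, 8 of them by FlyBase gene ID and PPO1 by its CG number. The question is what share of the transcripts of each tissue came from each blood cell gene. Total RNA depleted of ribosomal RNA was sequenced from eviscerated abdomen (the abdominal body wall with its fat body, emptied of internal organs), thorax, head and ovary of wild-type Canton S females aged 10 days, with 3 libraries per tissue and tissue pooled from 25 to 100 flies per sample. Heads and thoraces were separated from frozen flies and eviscerated abdomens were opened in buffer, so that the tissue and its handling cannot be told apart between these groups. All groups shared the strain, the sex and the age, and no sorted or isolated blood cells are among them. The libraries of a tissue were made as biologically independent samples.

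Adult flies carry an open circulation, and their hemocytes float in the hemolymph or sit on tissues along the body wall, the heart and the head capsule. Most are plasmatocytes, macrophage-like cells that engulf microbes and dying cells and that lay down matrix proteins. Crystal cells are a smaller class that makes the prophenoloxidases, enzymes which are released on injury and start melanization. Of the 9 genes, Hml (hemolectin, a clotting protein), NimC1 and eater (phagocytosis receptors with Nimrod repeats), Sr-CI (a class C scavenger receptor), He (hemese, a surface glycoprotein), crq (croquemort, a receptor of the CD36 family for apoptotic cells) and Pxn (peroxidasin, a peroxidase of the extracellular matrix) belong to plasmatocytes or to hemocytes in general. PPO1 and PPO2 encode prophenoloxidases of crystal cells.

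The libraries held between 7884586 and 32498809 reads on genes. Values below are CPM (read counts brought to a common library size) scaled by TMM factors, which correct for differences in RNA composition between libraries. The 9 genes together made up 0.0198 to 0.0223% of the TMM-scaled library size in abdomen, 0.0587 to 0.115% in thorax, 0.0481 to 0.0525% in head and 0.0146 to 0.0161% in ovary. These are not shares of the raw reads. CPM is a share of a library, so in these bulk samples fewer blood cells, less RNA per cell and more RNA from other cells cannot be told apart. The tissue labels went with their markers: neuronal genes (elav, nSyb, brp) summed to 2187 to 2626 CPM in head and at most 377 CPM in any other tissue, and muscle genes (Mhc, up, Act88F) to 1996 to 2999.6 CPM in thorax and at most 1294 CPM elsewhere. The abdomen libraries also carried ovarian transcripts. The germline genes vas and osk summed to 476, 1236 and 978 CPM in abdomen replicates 1 to 3, against 2.92 to 10.5 CPM in thorax, 2.50 to 15.5 CPM in head and 1314 to 1427 CPM in ovary, and the follicle cell genes tj and Vm26Aa to 1215 to 1417 CPM in abdomen, 28.7 to 45.5 CPM in thorax, 48.5 to 52.5 CPM in head and 2641 to 2886 CPM in ovary. The counts between abdomen and the other somatic tissues are therefore also given without the genes that were higher in ovary than in head and thorax.

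The clotting gene Hml differed between all 4 tissues. It stood at 44.3, 38.0 and 31.0 CPM in abdomen, 479, 506 and 258 CPM in thorax, 164, 186 and 193 CPM in head and 0.547, 0.272 and 0.748 CPM in ovary. Thorax was highest, followed by head, then abdomen and ovary, with no overlap between any pair of tissues, and the ovary values rest on 23, 8 and 31 reads. NimC1 followed the same order at a lower level, with 1.64, 1.27 and 0.710 CPM in abdomen, 29.6, 30.1 and 19.6 CPM in thorax, and 11.9, 10.8 and 12.4 CPM in head. In ovary it was represented by a single read, in replicate 1 (0.0238 CPM). The order of its tissues was again thorax, head, abdomen and ovary, without overlap.

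The other phagocytic receptors kept abdomen below both thorax and head but separated thorax from head less. For eater the values were 4.01, 1.82 and 1.07 CPM in abdomen, 37.4, 57.1 and 23.0 CPM in thorax and 29.3, 24.2 and 18.0 CPM in head, and its 9 ovary reads all came from replicate 1 (0.214 CPM). Thorax and head overlapped for eater, and abdomen lay below both. Sr-CI was measured at 17.2, 17.3 and 11 CPM in abdomen, 101, 109.7 and 48.5 CPM in thorax, 49.0, 44.0 and 53.6 CPM in head and 0.333, 0.340 and 0.145 CPM in ovary. Its thorax replicate 3 lay among the head values, while the other thorax libraries were above all of them.

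Pxn, the matrix peroxidase, was measured at 8.38, 6.81 and 8.28 CPM in abdomen, 149.7, 157 and 72.6 CPM in thorax, 69.8, 83.5 and 83.3 CPM in head and 2.16, 1.40 and 2.39 CPM in ovary. Abdomen was below every thorax and head library, and thorax replicate 3 lay among the head values. Pxn and crq were the members with the most reads in ovary, 231 and 16912 over the 3 libraries. He was at the edge of detection in the soma, with 16, 2 and 6 reads in abdomen, 12, 9 and 5 reads in thorax and 18, 10 and 16 reads in head, and with no read in ovary. Those reads give 1.46, 0.158 and 0.710 CPM in abdomen, 1.15, 0.875 and 0.707 CPM in thorax and 1.13, 0.797 and 0.974 CPM in head, so the 3 somatic tissues overlapped.

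The apoptotic cell receptor crq did not follow the other genes. Its values were 123, 137 and 129 CPM in abdomen, 132, 129 and 113 CPM in thorax, 109.9, 107 and 118 CPM in head and 147, 144 and 157 CPM in ovary. On this scale all tissues lay within a narrow band, the coefficient of variation within a tissue was 4.59 to 8.17%, and ovary was the highest, above every somatic library. Of all genes, 38.2%, 43.7% and 42.6% had every library of abdomen, thorax and head below every ovary library. In the authors' RPKM, described below, crq was less even, with means of 8.98 in head and 57.0 in ovary.

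The crystal cell genes were highest in thorax. PPO1 stood at 12.1, 5.39 and 9.35 CPM in abdomen, 61.5, 57.6 and 18.5 CPM in thorax, 12.7, 10.5 and 12.9 CPM in head and 0.166, 0 and 0.0483 CPM in ovary. Abdomen and head overlapped for PPO1. PPO2 had 10.8, 6.97 and 6.86 CPM in abdomen, 120.1, 102 and 32.6 CPM in thorax, 33.1, 25.3 and 32.8 CPM in head and 0.190, 0.0340 and 0.290 CPM in ovary. For PPO2 the abdomen was below the head in every library, unlike PPO1, and thorax replicate 3 fell within the head values.

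**Figure D1:**
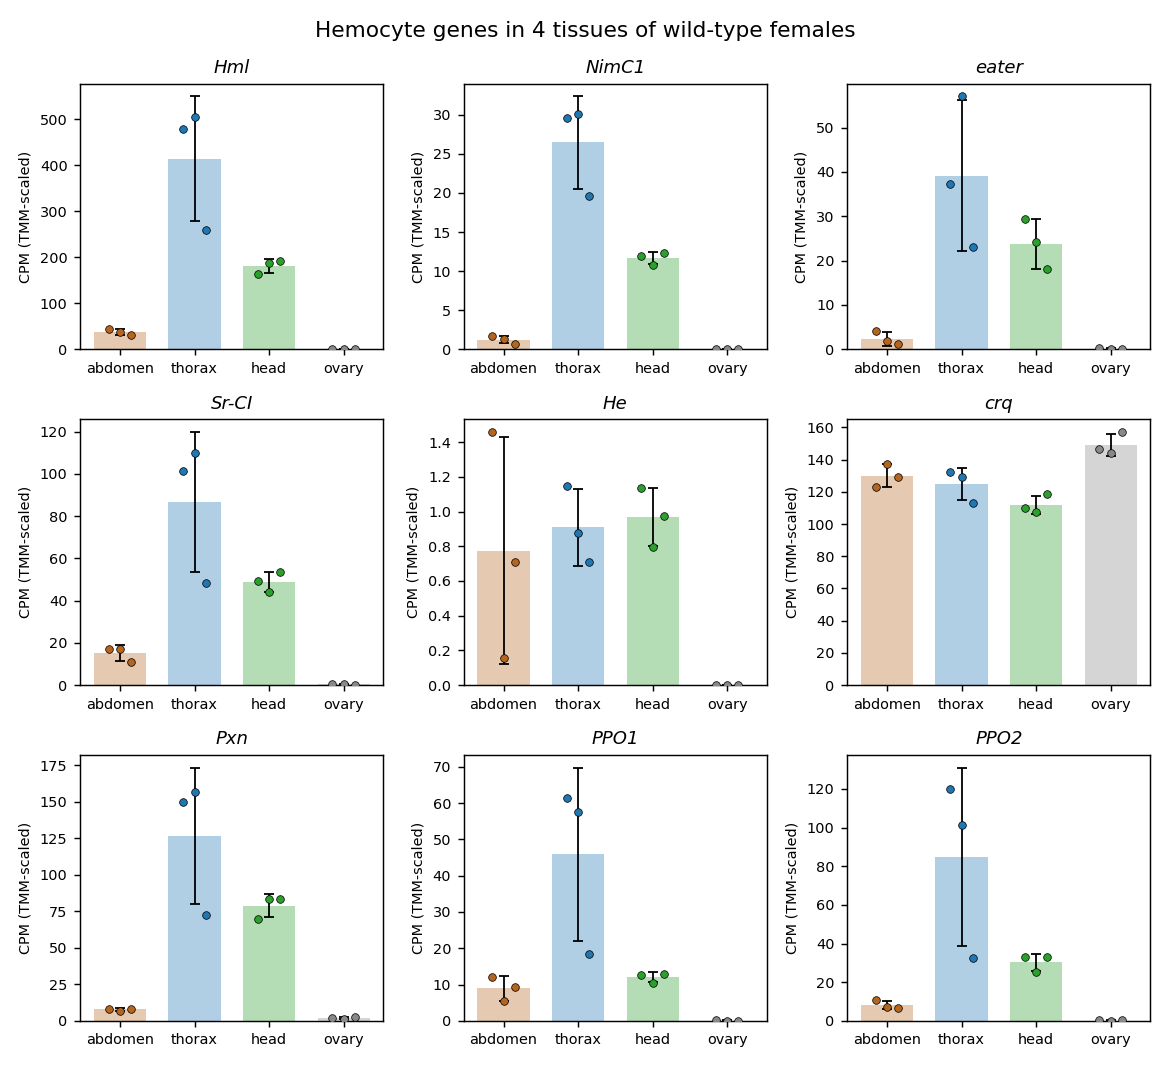
Normalised level (CPM, TMM-scaled, y axis, own scale per gene) of the 9 hemocyte genes in abdomen, thorax, head and ovary; points are the 3 libraries in replicate order, bars their mean and error bars the SD. Hml averaged 37.8 ± 6.64 CPM in abdomen, 414 ± 136 CPM in thorax, 181 ± 15.1 CPM in head and 0.522 ± 0.239 CPM in ovary (SD, n = 3), while crq stayed between 107 and 157 CPM in all 12 libraries.

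Most blood cell genes had a lower share of the transcripts in abdomen than in thorax. Lower in abdomen were 7 of the 9 genes, the clotting gene Hml, the receptors NimC1, eater and Sr-CI, the matrix gene Pxn and both prophenoloxidases, and for each of them every abdomen library was below every thorax library. The libraries separated in this way for 37.3% of all tested genes. The log2 fold change was largest for NimC1 (-4.42 ± 0.29, SE), eater (-4.06 ± 0.51) and Pxn (-4.02 ± 0.29), followed by Hml (-3.45 ± 0.29), PPO2 (-3.37 ± 0.42), Sr-CI (-2.51 ± 0.29) and PPO1 (-2.37 ± 0.42). In means, Hml stood at 37.8 CPM in abdomen and 414 CPM in thorax, 11 times as high in thorax. These calls are edgeR quasi-likelihood tests with Benjamini-Hochberg adjustment over 11188 genes and a threshold of 0.05, and the adjusted p of the 7 genes ran from 3.41e-08 for NimC1 to 0.000219 for PPO1. Of all tested genes 36.9% were lower in abdomen than in thorax and 35.5% were higher (72.4% in either direction), and the median log2 fold change was -3.37 over the 9 genes and -0.08 over all genes. The values for crq (0.06 ± 0.12, edgeR adjusted p = 0.697) and He (-0.26 ± 0.71, adjusted p = 0.76) did not pass. No member was higher in abdomen, also at an unadjusted p of 0.05 in edgeR, in DESeq2 or in limma on the RPKM values. Limma called all 9 lower in abdomen, on a scale where 48.7% of all genes were lower, 19.9% were higher and the median of all genes was -0.63. The value for crq there was -0.60.

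Against the head, the abdomen was lower for 6 of the 9 genes, where 39.2% of all genes were lower and 35.8% higher (75% in either direction). Pxn (-3.34 ± 0.29, edgeR adjusted p = 2.46e-07), eater (-3.34 ± 0.51, 5.16e-05) and NimC1 (-3.24 ± 0.29, 4.09e-07) had the largest log2 fold changes, and Hml (-2.26 ± 0.28), PPO2 (-1.88 ± 0.41) and Sr-CI (-1.68 ± 0.29) followed. Every abdomen library was below every head library for these 6 genes, as for 40.0% of all genes. PPO1, the other crystal cell gene, averaged 8.95 ± 3.38 CPM in abdomen and 12 ± 1.31 CPM in head (SD, n = 3 each), a log2 fold change of -0.44 ± 0.42 that did not pass (edgeR adjusted p = 0.359). Neither did He (-0.34 ± 0.69) or crq (0.21 ± 0.12), although every abdomen library was above every head library for crq, as for 35.5% of all genes. The median over the 9 genes was -1.88, against -0.08 over all genes. The count of members higher in abdomen was 0 in edgeR, also at an unadjusted p of 0.05, and 0 in DESeq2 and limma, but crq was called higher (0.34, edgeR adjusted p 0.0255 to 0.0301) when any ovary library was left out, and also without thorax replicate 1 (0.31) or abdomen replicate 1 (0.28).

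Both comparisons were repeated without the 3991 genes that were higher in ovary than in head and thorax, a choice made after seeing the data. Of the 7297 genes that then passed the filter, 33.6% were lower and 28.1% higher in abdomen than in thorax, and 38.7% were lower and 30.6% higher in abdomen than in head. The same 7 genes were then lower in abdomen than in thorax, with smaller log2 fold changes: NimC1 -3.69, eater -3.34, Pxn -3.28, Hml -2.72, PPO2 -2.64, Sr-CI -1.77 and PPO1 -1.65. The same 6 genes were lower in abdomen than in head, at -2.58 for eater, -2.56 for Pxn, -2.47 for NimC1, -1.48 for Hml, -1.11 for PPO2 (edgeR adjusted p = 0.0256) and -0.90 for Sr-CI (edgeR adjusted p = 0.0127). The removal also reset the scaling, and the called members shifted by nearly the same fold, 1.65 to 1.67 over thorax and 1.69 to 1.72 over head. The median log2 fold change of all remaining genes was -0.185 over thorax and -0.205 over head. On that scale only crq turned into a call, higher in abdomen than in thorax (0.80) and than in head (1.00). The values for He turned to 0.45 and 0.41 and that for PPO1 against head to 0.33 without passing the threshold. Other cell types also differed between the tissues: the fat body list (Lsp2, apolpp, Yp1, fit, to) summed to 31615 to 39734 CPM in abdomen, 73149 to 95055 CPM in thorax and 76263 to 98459 CPM in head, and the oenocyte gene Cyp4g1 reached 26383 to 36965 CPM in abdomen, 520.3 to 1445 CPM in thorax and 29.6 to 35.4 CPM in head. The part of these cell types in the result was not tested.

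**Figure D2:**
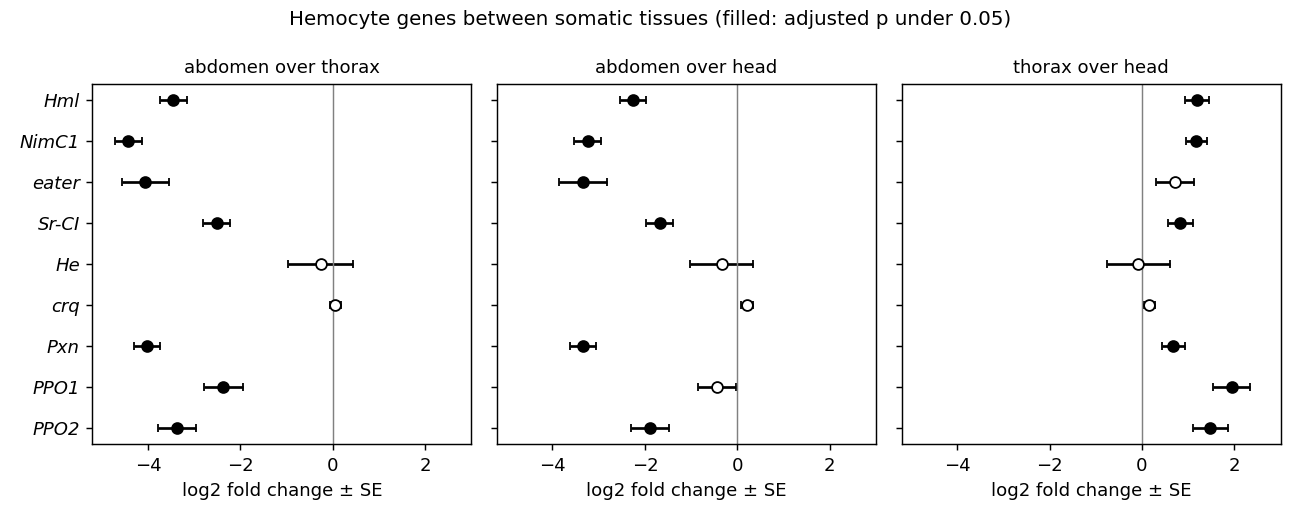
Log2 fold change (x axis) with its SE for each hemocyte gene (rows) in abdomen over thorax, abdomen over head and thorax over head, 3 libraries per tissue; filled points have an edgeR adjusted p under 0.05. In abdomen over thorax 7 genes lie between -4.42 and -2.37 with crq and He near 0, in abdomen over head 6 genes lie between -3.34 and -1.68, and in thorax over head 6 genes lie between 0.68 and 1.94.

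Thorax and head were closer to each other. Higher in thorax than in head were 6 of the 9 genes, where 16.5% of all genes were higher and 25.4% lower (41.9% in either direction), and none was lower (0 in edgeR, also at an unadjusted p of 0.05, and 0 in DESeq2 and limma). The crystal cell genes PPO1 (1.94 ± 0.41, edgeR adjusted p = 0.00189) and PPO2 (1.48 ± 0.38, 0.00699) had the largest log2 fold changes. Hml (1.20 ± 0.26, edgeR adjusted p = 0.0027) and NimC1 (1.18 ± 0.23, 0.00112) came next, and Hml averaged 2.29 times its head level in thorax. Sr-CI (0.83 ± 0.27, adjusted p = 0.027) and Pxn (0.68 ± 0.25, adjusted p = 0.0442) passed narrowly, with thorax replicate 3 among the head values. The Pxn call was lost without head replicate 1, 2 or 3 or thorax replicate 1 or 2 (edgeR adjusted p 0.0741 to 0.157), and the Sr-CI call without head replicate 1 or 2 or thorax replicate 1 or 2 (0.0668 to 0.106). With library size as the only scaling neither passed (Pxn 0.48, Sr-CI 0.62). The receptor eater (0.72 ± 0.41) did not pass in edgeR (adjusted p = 0.177), but did with the 2 tissues alone (0.87, edgeR adjusted p = 0.0279) and in limma on RPKM values (1.56, adjusted p = 0.00184), a scale on which the median of all genes was 0.73. crq (0.16 ± 0.12, edgeR adjusted p = 0.324) likewise passed only in other settings, among them DESeq2 (0.20, adjusted p = 0.0235) and limma on RPKM values (1.11), and He (-0.08 ± 0.68) in none of them. The median of the 9 genes was 0.83, against -0.17 over all genes.

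Between the somatic tissues and the ovary the difference was much larger. All members but crq, 8 of 9, were higher than in ovary in each somatic tissue, where 35.9%, 43.7% and 46.4% of all genes were higher (68.5%, 84% and 85.8% in either direction), and every somatic library was above every ovary library for each of them. Of all genes, 35.9%, 43.9% and 48.2% had every library of abdomen, thorax and head above every ovary library. The 3 comparisons share the ovary libraries. Hml gave log2 fold changes of 6.12 ± 0.35 in abdomen, 9.57 ± 0.39 in thorax and 8.37 ± 0.38 in head over ovary (edgeR adjusted p 7.4e-09, 1.23e-10 and 2.1e-10). Sr-CI gave 5.80 ± 0.40, 8.31 ± 0.41 and 7.48 ± 0.40, and PPO2 5.44 ± 0.59, 8.80 ± 0.58 and 7.32 ± 0.57 in abdomen, thorax and head. PPO1 gave 6.70, 9.07 and 7.13 in the same order, from 9 ovary reads. Pxn had the smallest fitted difference of the 8, 1.96 ± 0.30 in abdomen, 5.98 ± 0.32 in thorax and 5.29 ± 0.31 in head, and the abdomen value was lost on the authors' RPKM scale (0.03, limma adjusted p = 0.957). On that scale the differences of the 8 genes from ovary were smaller, with Hml at 2.74 in abdomen, 6.66 in thorax and 4.59 in head, and the medians of all genes were -1.74, -1.14 and -1.95. Without Hml, crq and He the members ran there from 0.03 to 3.14 in abdomen, 4.29 to 6.36 in thorax and 2.75 to 4.51 in head. All 8 genes kept their calls but Pxn in abdomen. These values hold 0.1 RPKM added before the logarithm. That is more than the mean ovary RPKM of Hml (0.0481), NimC1 (0.00367), eater (0.0232), PPO1 (0.0328), PPO2 (0.0810) and He (0), but not of Sr-CI (0.146) and Pxn (0.355). The added amount thus held down the differences of those 6 genes most, and no fold is given for He. The median over the 9 genes was 5.80, 8.80 and 7.32, against 0.01, 0.11 and 0.25 over all genes, and 5.44, 8.80 and 7.32 with He at the bound given next.

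The genes with almost no ovary reads allow only bounds or wide intervals there. He had no read in ovary, and against a floor of 3 reads over the ovary group it was at least 28.2-fold higher in abdomen, 35.2-fold in thorax and 36.9-fold in head. NimC1, with 1 ovary read, was 141 times as high in abdomen (95% exact binomial interval 23.9 to 5702), 3078 times in thorax (551 to 121750.0) and 1327 times in head (237 to 52501). Such intervals pool the reads of the 3 libraries of a tissue, so they hold counting error alone and leave out the spread between libraries. They also treat reads as independent molecules, which reads without molecular identifiers are not. For eater, whose ovary reads came from 1 library, the log2 fold change over ovary was 4.77 in abdomen, 8.84 in thorax and 8.12 in head. Without ovary replicate 1 neither eater nor NimC1 had an ovary read left, so that no fold is given for them, and their calls held. The same omission moved PPO1, with 2 ovary reads left, to 7.81 in abdomen, 10.28 in thorax and 8.12 in head. Other omissions that moved a value by over 1.5-fold kept its call: without ovary replicate 2, eater became 4.19 in abdomen and 7.41 in head, PPO1 6.11 in abdomen and 6.42 in head, and PPO2 6.64 in head. Without ovary replicate 3, eater became 4.03 in abdomen, 8.18 in thorax and 7.24 in head, NimC1 8.83 in head and Sr-CI 6.88 in head, and without abdomen replicate 1 eater became 4.12 in abdomen. He also kept its call without abdomen replicate 1, and no fold is given because it had no ovary read.

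The receptor crq was the exception, with 129.9 ± 7.18 CPM in abdomen, 125 ± 10.2 CPM in thorax, 112 ± 5.73 CPM in head and 149 ± 6.85 CPM in ovary (SD, n = 3 each). It was lower in head than in ovary (-0.42 ± 0.12, edgeR adjusted p = 0.00656), where 39.3% of all genes were lower, but not in DESeq2 (-0.13, adjusted p = 0.083). In abdomen (-0.20 ± 0.12, adjusted p = 0.163) and thorax (-0.26 ± 0.12, adjusted p = 0.0672) over ovary it did not pass in edgeR, among 32.6% and 40.3% of all genes that were lower there, and no other member was lower. Limma on the RPKM values called crq lower in all 3 somatic tissues (-2.17, -1.57 and -2.68), beside 66.3%, 55.9% and 62.1% of all genes in abdomen, thorax and head. DESeq2 called crq lower in none, so its place relative to ovary depends on the scaling. The abdomen call appeared without ovary replicate 1 (-0.38) or 2 (-0.41), and the thorax call without thorax replicate 1 (-0.37) or 2 (-0.35), abdomen replicate 1 (-0.28) or 3 (-0.33) or ovary replicate 1 (-0.33) or 2 (-0.36).

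Levels of different genes can be set side by side only per length, for which the authors' RPKM (reads per kilobase of gene model, scaled to library depth) was used. In thorax crq (19.4 ± 3.78 RPKM, SD, n = 3), Sr-CI (19.3 ± 8.77), PPO2 (17.1 ± 10.4) and Hml (15.9 ± 6.47) were highest and could not be ordered beyond their spread. Pxn (9.44 ± 4.20 RPKM), PPO1 (8.96 ± 5.21), eater (5.33 ± 2.57) and NimC1 (5.11 ± 1.63) formed the middle of that tissue and He (0.606 ± 0.214) the bottom. In head crq led with 8.98 ± 2.08 RPKM, followed by Sr-CI with 5.47 ± 1.21, Hml with 3.55 ± 1.03 and Pxn with 3.02 ± 0.931 RPKM. In abdomen crq (12.6 ± 1.08 RPKM) stood far above Sr-CI (2.04 ± 0.360) and the crystal cell genes PPO1 (1.06 ± 0.403) and PPO2 (0.994 ± 0.241), with Hml at 0.884 ± 0.108 RPKM. In ovary crq reached 57.0 ± 2.14 RPKM, while Pxn, the next, was at 0.355 ± 0.0875 RPKM.

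Ratios of 2 genes within a library do not depend on how libraries were scaled, and several of them differed between the tissues. The ratio of PPO2 to PPO1 reads was 0.895, 1.29 and 0.734 in abdomen, 1.95, 1.76 and 1.76 in thorax and 2.61, 2.40 and 2.54 in head. Each tissue thus had its own balance of the 2 prophenoloxidases, with no overlap, and head leaned most to PPO2. The ratio of Pxn to Hml reads was ordered the same way, at 0.179 to 0.267 in abdomen, 0.281 to 0.313 in thorax and 0.426 to 0.448 in head. The ratio of Sr-CI to Hml ran 0.355 to 0.454 in abdomen, 0.188 to 0.217 in thorax and 0.236 to 0.299 in head, so that abdomen was highest for this pair. NimC1 to Hml was 0.0229 to 0.0370 in abdomen, below the 0.0596 to 0.0760 in thorax and 0.0577 to 0.0727 in head, which overlapped. PPO1 to Hml was 0.142 to 0.302 in abdomen, 0.0716 to 0.128 in thorax and 0.0565 to 0.0773 in head, and PPO2 to Hml overlapped between all 3 tissues. The ratio of crq to Hml stood at 2.78 to 4.17 in abdomen, 0.256 to 0.438 in thorax and 0.577 to 0.671 in head, with no overlap. The summed CPM of PPO1 and PPO2 over that of the 7 other members was 0.115, 0.0610 and 0.0891 in abdomen, 0.195, 0.161 and 0.0954 in thorax and 0.105, 0.0783 and 0.0954 in head. Without crq this ratio was 0.298, 0.189 and 0.307 in abdomen, 0.228, 0.185 and 0.121 in thorax and 0.141, 0.102 and 0.127 in head. Abdomen and thorax overlapped in this ratio both with and without crq. These ratios are given without a test, and with 3 libraries per tissue an exact permutation test between any 2 tissues could not go below p = 0.1.

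**Figure D3:**
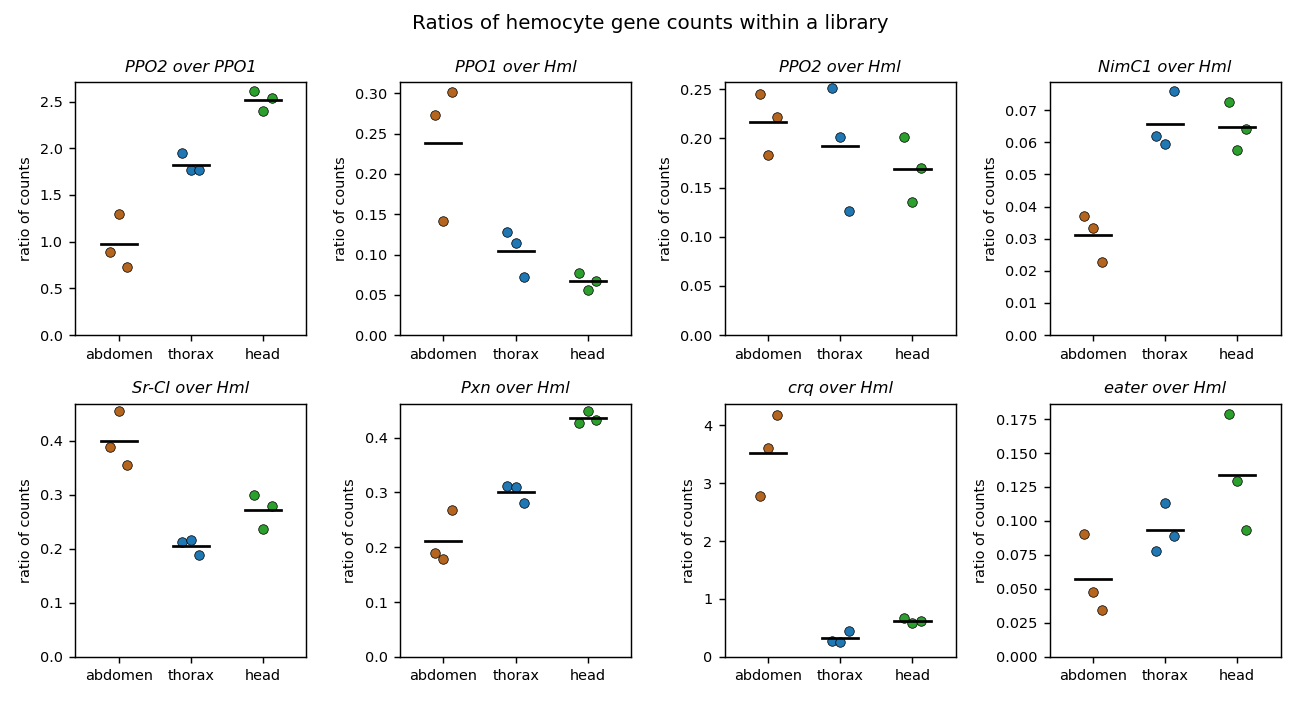
Ratio of the read counts of 2 hemocyte genes within each library (y axis, starting at 0, own scale per panel) in abdomen, thorax and head; points are libraries and lines are means. PPO2 over PPO1 lies at 0.734 to 1.29 in abdomen, 1.76 to 1.95 in thorax and 2.40 to 2.61 in head, and crq over Hml at 2.78 to 4.17 in abdomen against at most 0.671 in the other tissues.

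In some libraries the 9 genes deviated from their tissue in 1 direction. In thorax replicate 3 all 9 were below the mean of the thorax libraries, by a median of 0.67 on the log2 scale, whereas the median over all genes there was -0.03 and 53.8% of all genes were below their thorax mean. PPO2 (-1.17), PPO1 (-1.12) and Sr-CI (-0.75) deviated most in that library, and crq (-0.14) least. The pericardial cell and heart list (Hand, sns, Cubn, Amnionless, prc, tin) summed to 102 CPM in thorax replicate 3, against 179.6 and 189.6 CPM in replicates 1 and 2, and the muscle genes to 1996 CPM, against 2999.6 and 2945 CPM. The fat body list (73149 CPM, against 84038 and 95055 CPM) and the trachea genes btl and serp (24.6 CPM, against 33.5 and 29.3 CPM) were also lowest there. The neuronal genes (362 CPM, against 299 and 377 CPM) and the glial gene repo (29.0 CPM, against 26.3 and 28.5 CPM) were not. The part of these cell types in the lower blood cell values was not tested. Without thorax replicate 3 the counts of called members stayed at 7 lower in abdomen than in thorax and 6 higher in thorax than in head, and the thorax over head values became 2.33 for PPO1, 1.89 for PPO2, 1.47 for Hml, 1.38 for NimC1, 1.13 for Sr-CI and 0.98 for Pxn. In abdomen replicate 1, 8 of the 9 genes were above the abdomen mean, by a median of 0.43, while the median over all genes was 0 and 49.0% of all genes were above. That library had the lowest sum of germline genes in abdomen, but not of follicle cell genes (1389 CPM, against 1215 and 1417 CPM in replicates 2 and 3). The part of ovarian transcripts in its values was not tested. Without abdomen replicate 1, the log2 fold change of eater was -4.70 in abdomen over thorax and -3.95 in abdomen over head. The head libraries were the most even, with library medians between -0.11 and 0.08.

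**Figure D4:**
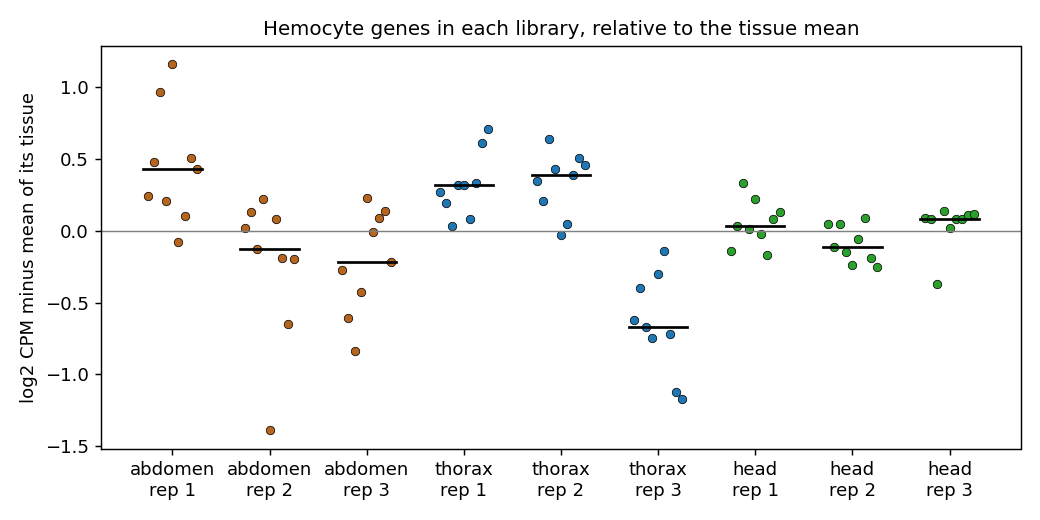
Deviation of each hemocyte gene from the mean of its tissue (y axis, log2 CPM) in the 9 somatic libraries (x axis); each point is a gene in the order Hml, NimC1, eater, Sr-CI, He, crq, Pxn, PPO1, PPO2, and lines are medians. All 9 points of thorax replicate 3 lie below 0 with a median of -0.67, and 8 of 9 in abdomen replicate 1 lie above 0 with a median of 0.43.

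Over all 12 libraries the log2 CPM values of pairs of members without crq gave Pearson r between 0.819 and 0.995 (28 pairs, median 0.963). The 8 pairs with crq gave r between -0.804 and -0.691. These coefficients describe 4 tissues of 3 libraries that share their scaling, and they carry the somatic to ovary difference. The 10 other genes whose log2 CPM was most like the mean profile of the 9 (r 0.990 to 0.994 over 12 libraries) were NtR, CG9297, CG7272, Karl, Hpd, retm, CG14439, CG8306, emp and lectin-24Db. NtR averaged 6.19 CPM in abdomen, 50.9 CPM in thorax, 26.2 CPM in head and 0.0944 CPM in ovary. For single members the most alike genes were Tat for Hml (r = 0.998), CG4950 for NimC1 (0.997), mab-21 for eater (0.994), CG42319 for Sr-CI (0.996), CG8501 for He (0.978), CG43345 for crq (0.96), Treh for Pxn (0.996), Cyp6a21 for PPO1 (0.995) and CG6225 for PPO2 (0.993), each over 12 libraries.

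Among 46 other genes of hemocyte receptors, blood cell fate, phagocytosis, melanization and clotting, 39 passed the filter. In abdomen over thorax 4 of them were higher and 28 lower, where 35.5% and 36.9% of all genes were higher and lower. In abdomen over head 3 were higher and 28 lower, beside 35.8% and 39.2% of all genes, and in thorax over head 3 were higher and 5 lower, beside 16.5% and 25.4%. Removing the genes higher in ovary left 35 of the 39 listed genes. Of these, 5 were higher and 17 lower in abdomen over thorax, beside 28.1% and 33.6% of all genes in that setting. Over head 6 were higher and 15 lower in abdomen, beside 30.6% and 38.7%, so the lower count came near the share over all genes. The 4 genes removed from the lists were Mcr, PPO3, Pvf1 and pes, and they held 3 of the 28 genes lower than in thorax and 1 of the 28 lower than in head. The count of listed genes higher in thorax than in head ran from 3 to 29 over the alternatives. The 29 came from limma on RPKM values, where 53.8% of all genes were higher and the median of all genes was 0.73.

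In the Nimrod and Draper family, relatives of NimC1 and eater, 4 of 8 tested genes were lower in abdomen than in thorax and 2 were higher, shares near those over all genes given above. NimC2 averaged 0.210 CPM in abdomen, 7.55 CPM in thorax and 3.88 CPM in head, a log2 fold change of -5.09 ± 0.52 in abdomen over thorax and -4.12 ± 0.52 over head. NimC4, a receptor for the uptake of apoptotic cells, was likewise lower in abdomen (-3.76 ± 0.81 over thorax, -3.59 ± 0.80 over head). The B group, which lacks a membrane anchor, was mixed, with both genes that were higher in abdomen and others that were lower or did not pass. NimB3 averaged 12.6 CPM in abdomen, 3.67 CPM in thorax and 3.52 CPM in head (1.78 ± 0.34 over thorax and 1.84 ± 0.34 over head, edgeR adjusted p 0.000433 and 0.000254), and NimB1, outside the rule and named for its direction after its values were seen, was higher too (1.09 and 0.99), a call lost without abdomen replicate 1 (0.61 and 0.54), over head also without head replicate 1 (0.94) or 3 (0.90) and over thorax in limma on RPKM values (0.34). The class C scavenger receptors Sr-CII, Sr-CIII and Sr-CIV, relatives of Sr-CI, did not pass the filter, with mean levels of at most 0.905 CPM in any tissue. In the CD36 family of crq, 5 of 6 genes were lower in abdomen than in thorax and 4 lower than in head, where 36.9% and 39.2% of all genes were lower. The rule names Snmp2 (-2.54 over thorax and -2.48 over head), emp (-1.87 and -1.36) and santa-maria (-0.49 and -1.48). For santa-maria the abdomen over thorax call was lost without thorax replicate 1 (-0.44) or 2 (-0.36) or abdomen replicate 2 (-0.39) or 3 (-0.32), with library size alone, upper quartile factors or the 2 tissues alone (-0.43 to -0.10), and the value turned to 0.25 without the genes higher in ovary.

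Among regulators of blood cell fate, srp, the GATA factor needed for hemocytes and fat body, was at 262 ± 33.0 CPM in abdomen, 267 ± 27.3 CPM in thorax and 276 ± 16.2 CPM in head (SD, n = 3 each). It did not pass in any of the somatic comparisons and is named outside the rule, after its values were seen. Its partner ush was lower in abdomen (-2.27 ± 0.21 over thorax and -2.03 ± 0.21 over head), and so was kn, needed for lamellocytes in larvae, which was also lower in thorax than in head (-2.11 ± 0.31 over thorax, -3.03 ± 0.30 over head and -0.92 ± 0.27 in thorax over head). That last call for kn was lost without head replicate 3 (-0.90), thorax replicate 1 (-0.93) or 3 (-0.75) or any ovary replicate (-0.70), and in limma on RPKM values (0.02). The RUNX factor lz, which specifies crystal cells and also works in the eye, was counted with 1 read from abdomen, 63 from thorax and 1410 from head. Its level was 72.5 times as high in thorax (95% exact binomial interval 12.6 to 2910.5) and 1008 times as high in head (181 to 39836) as in abdomen, and lower in thorax than in head (-3.78 ± 0.34). These intervals too leave out the spread between libraries. The order of lz, head above thorax, was the opposite of that of PPO1 and PPO2. For the PDGF/VEGF-like receptor Pvr, which supports hemocyte survival, abdomen was lower than thorax (-1.53 ± 0.16) and head (-1.17 ± 0.16), and its ligand Pvf3 was highest in head (1.74 CPM in abdomen, 11 CPM in thorax and 56.9 CPM in head). Pvf1, another ligand, was higher in thorax than in head (0.92 ± 0.23) and lower in abdomen than in thorax (-0.80 ± 0.24), the second of these lost with library size alone (-0.40). Without the genes higher in ovary the call for Pvr in abdomen over head was lost (-0.38).

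All 5 thioester-containing proteins, relatives of complement factors, were lower in abdomen than in thorax and head, beside the same shares of 36.9% and 39.2% over all genes. Tep1 had no read in abdomen, and against a floor of 3 reads over the abdomen group it was at least 9.21-fold higher in thorax and at least 24.8-fold higher in head. Tep3 (-2.26 ± 0.22 over thorax, -1.87 ± 0.21 over head) and Tep4 (-1.16 ± 0.14 and -1.44 ± 0.14) followed. In the melanization cascade 7 of 8 genes, beside those same shares, were lower in abdomen than in either tissue and MP1, a protease outside the rule and named after its values were seen, was higher (1.15 ± 0.16 over thorax, lost in limma on RPKM values at 0.46, and 0.92 ± 0.16 over head). The tyrosine hydroxylase gene ple, which also makes dopamine, averaged 7.24 CPM in abdomen, 368 CPM in thorax and 104 CPM in head (-5.67 ± 0.19 over thorax and -3.84 ± 0.17 over head, and 1.83 ± 0.15 in thorax over head). Ddc, the next enzyme of that path, was at -2.90 ± 0.23 and -3.16 ± 0.23, and the protease inhibitor Spn27A at -1.26 ± 0.18 and -1.18 ± 0.18, in abdomen over thorax and over head. PPO3, the prophenoloxidase of lamellocytes, averaged 2.66 CPM in abdomen, 0.747 CPM in thorax, 2.11 CPM in head and 4.68 CPM in ovary, and was higher in abdomen than in thorax (1.85 ± 0.50) and lower in thorax than in head (-1.52 ± 0.50), an order unlike that of PPO1 and PPO2. The thorax over head call of PPO3 was lost without head replicate 1 (-1.17), thorax replicate 1 (-1.43) or 2 (-1.34) or any ovary replicate (-1.29), and with upper quartile factors, the 2 tissues alone or RPKM values (-1.38 to -0.32). Tg, the transglutaminase of the clot, was lower in abdomen (-2.30 ± 0.18 over thorax and -1.09 ± 0.18 over head) and higher in thorax than in head (1.21 ± 0.17), and its call in abdomen over head was lost without the genes higher in ovary (-0.32).

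**Figure D5:**
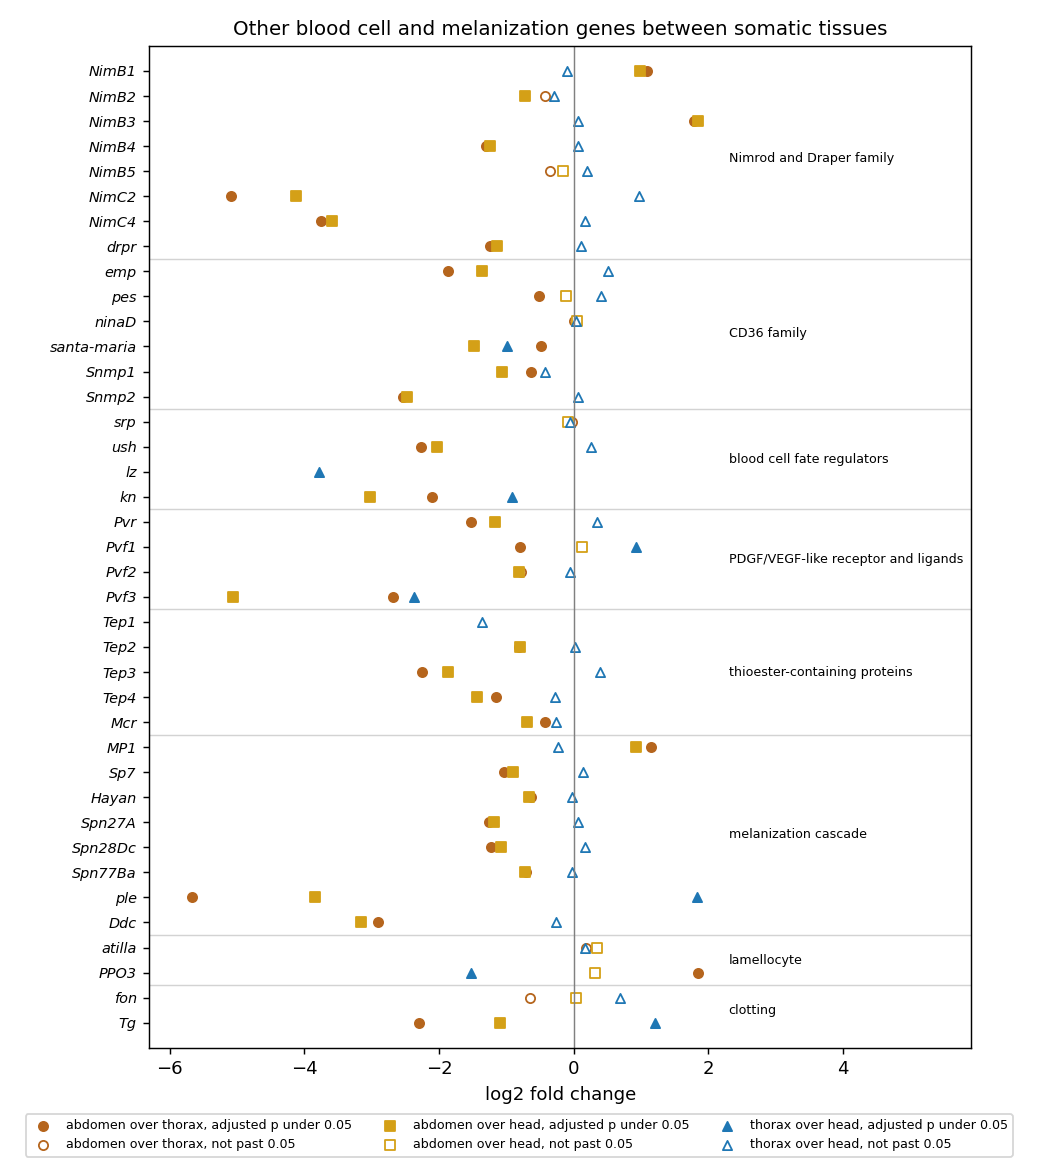
Log2 fold change (x axis) of the 39 tested genes of the other blood cell lists (rows, grouped) in abdomen over thorax, abdomen over head and thorax over head; filled symbols have an edgeR adjusted p under 0.05, and lz and Tep1 are not drawn for abdomen, where they had 1 and 0 reads. NimC2 lies at -5.09 and -4.12 and ple at -5.67 and -3.84 for abdomen, while NimB1, NimB3 and MP1 lie above 0 for both abdomen comparisons.

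Some members share sequence space with other genes. In the RefSeq annotation of assembly Release 6, He overlaps NimB5, crq overlaps ex, Pxn overlaps CG16986 and 3 long noncoding RNAs, and PPO1 overlaps Elk, while Hml, NimC1, eater, Sr-CI and PPO2 overlap no other gene. Whether the counting used strand is not given in the sources used here, so reads of such pairs may be mixed. The counts of He, at 24 reads in abdomen and 26 in thorax, are the most exposed, since NimB5 had 248 and 282 reads in those tissues. The overlapping partner of crq, ex, averaged 79.6 CPM in abdomen, 149 CPM in thorax, 93.0 CPM in head and 35.5 CPM in ovary, and thus was lowest in ovary, where crq was highest. CG16986 averaged 15.3 CPM in abdomen, 18.2 CPM in thorax, 10.1 CPM in head and 6.23 CPM in ovary, and its summed reads, 490 in abdomen and 699 in ovary, exceeded those of Pxn, 248 in abdomen and 231 in ovary. In thorax and head Pxn had more, 3695 and 3524 reads, against 513 and 454 for CG16986. Elk stood at 0.271 CPM in abdomen, 3.14 CPM in thorax, 18.0 CPM in head and 0.0753 CPM in ovary, an order that differs from the thorax maximum of PPO1. In head Elk had 823 reads, more than the 545 of PPO1, so the head values and ratios of PPO1 are exposed to such mixing too. In abdomen and thorax Elk had 9 and 88 reads, against 280 and 1368 for PPO1, and in ovary both had 9.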

How the data were processed

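Expression was measured by total RNA-seq in 4 tissues with 3 libraries each, assigned to groups from the sample labels and table columns. The authors mapped reads to dm3 with TopHat (TopHat2 2.0.10 in the submitters' processing notes) and summarised them by easyRNASeq gene models. The deposited table holds raw counts, and a second deposited table gives RPKM, whose library totals, as used by the authors, do not follow the summed gene counts. Strand use, and the batches of the batch correction that the methods name, are not given in the sources used here.

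The tests ran in edgeR 4.0.16 (R 4.3.3), using filterByExpr on tissue (11188 of 13898 genes kept, all 9 members among them), TMM factors, and a quasi-likelihood fit of tissue over all 12 libraries with 2-sided tests, Benjamini-Hochberg adjustment over all genes tested and a threshold of 0.05. Fold changes used a prior count of 0.125. Other software was Python 3.11.15, pandas 2.3.3, numpy 2.4.6, scipy 1.17.1 and matplotlib 3.10.9. Gene counts per library ran from 7884586 to 11600876 in abdomen, 8087981 to 13630001 in thorax, 14040598 to 19208152 in head and 22247599 to 32498809 in ovary, and the precision of each comparison rests on 3 libraries per tissue.

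Alternatives were DESeq2 1.42.0, upper quartile factors, scaling by library size, omission of the filter, a filter of 1 CPM in 3 libraries, a fit of the 2 tissues alone, a block for replicate number, limma 3.58.1 on log2(RPKM + 0.1), each library left out in turn and, added after seeing the data, removal of the genes higher in ovary than in head and thorax. All 9 members are named. From each list of other genes at most the 3 with the largest called change between somatic tissues are named, and the genes most alike are those with the highest Pearson r to the members. The members and lists were chosen with earlier results of these data known. Of 26 marker genes 25 were matched, and nos was not used. Repeat, fat body and small RNA tables, and the authors' own log2 fold changes and p-values for repeats, were not used here, and no sequence is printed.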

Additional observations from a re-analysis of the deposited data

How the results depend on the processing

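Of 1126 values of the members under the alternatives, 1053 kept their direction and their side of the threshold, 14 no longer passed, 35 newly passed and 24 changed sign, and of 252 counts 226 stayed within 1.5 times. The counts of 6 and 7 genes lower in abdomen than in head and thorax did not change when any library was left out, and the count higher in thorax than in head ran from 4 to 7 (4 to 8 over all alternatives). The members higher in abdomen became 1 of 9, by crq, over head with library size alone, upper quartile factors or without the genes higher in ovary, and over thorax with library size alone or without those genes. The members lower than in ovary became 1, again crq, in abdomen and thorax with library size alone or RPKM values. The same held in thorax with the 2 tissues alone, and the count was 0 in head in DESeq2. Of all genes, 41.3% and 50.4% were lower in abdomen and thorax with library size alone, and 47.4% in thorax with the 2 tissues alone. The count was also 1 in abdomen and thorax without the genes higher in ovary. Those genes were themselves picked by comparison with ovary, so that setting says nothing more on crq against ovary. When a library was left out, the members higher in abdomen than in head ran from 0 to 1, and those lower in abdomen and in thorax than in ovary each from 0 to 1.

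The values that changed sign were mostly those of crq and He, which did not pass in the comparisons concerned. For crq, abdomen over thorax was -0.14 in DESeq2 and -0.60 on RPKM values and ran from -0.052 to 0.168 with a library left out, thorax over head was -0.027 with library size alone, abdomen over ovary was 0.016 with upper quartile factors and thorax over ovary 0.066 in DESeq2. For He, abdomen over head was 0.41 without the genes higher in ovary and ran from -1.20 to 0.20 with a library left out, abdomen over thorax was 0.45 without those genes and 0.12 with library size alone and ran from -1.15 to 0.26, and thorax over head was 0.062 with upper quartile factors, 0.065 with the 2 tissues alone and 0.71 on RPKM values and ran from -0.26 to 0.14. Without the genes higher in ovary PPO1 was 0.33 in abdomen over head and santa-maria 0.25 in abdomen over thorax, and on RPKM values kn was 0.016 in thorax over head. The causes were not tested. Scaling by library size moved the median of all genes to 0.13, 0.31 and -0.36 in abdomen over head, abdomen over thorax and thorax over head, against -0.08, -0.08 and -0.17, and RPKM values moved it to 0.19, -0.63 and 0.73. In abdomen over thorax 4917 genes were higher and 3181 lower with library size alone, against 3975 and 4129.

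Replicate numbers were not shown to pair the libraries, since 3 of 18 same-numbered pairs had deviations correlated over 0.1, as had 3 of 36 other pairs. With a replicate block 5 members were higher in thorax than in head, Pxn no longer passing (0.66, edgeR adjusted p = 0.0744), and the counts of 6 and 7 members lower in abdomen were kept. He and the ovary values of NimC1, eater and PPO1 rest on few reads, so that depth limits them most.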
